A study of Homo sapiens with 23 samples.

Results

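OVSAHO is an ovarian cancer cell line, and its untreated, parental cells were compared here with the parental cells of 3 other ovarian cancer lines. The members were the 3 libraries of parental OVSAHO among 23 RNA-seq libraries in all, assigned by their column names and by no measured value. They were set against 2 libraries of parental OV-90, 3 of Kuramochi and 3 of EFO-21, 8 libraries in all, with every line given equal weight. The line, the gene lists and the tests were, however, chosen with earlier results of these data known. The study paired each parental line with a derivative that had been selected in culture by stepwise increases of prexasertib, an inhibitor of the checkpoint kinase CHK1. The 3 libraries of prexasertib-resistant OVSAHO and the 9 resistant libraries of the other lines were used only to see whether a difference was also present there. The parental cells carried no drug selection, and the labels name no further treatment, genotype or allele for any group. Each line is 1 line, the replicates of a line are separate cultures, and p-values therefore measure the spread between cultures and do not extend to other ovarian tumours.

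High-grade serous ovarian carcinoma, for which OVSAHO and Kuramochi are widely used models, is thought to arise largely from the secretory epithelium of the fallopian tube, a derivative of the Mullerian duct. That epithelium is marked by transcription factors such as PAX8 and WT1, by simple keratins and by secreted or surface proteins that serve as tumour markers, among them CA125 (the product of MUC16) and HE4 (the product of WFDC2). CHK1 is activated by the kinase ATR when replication forks stall, and it restrains new origin firing and entry into mitosis until replication is complete. Established lines keep parts of the program of their tissue of origin and lose others, so a line is described by which lineage, adhesion, cell cycle and immune genes it expresses.

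The table gave 1 log2 value per gene and library for 21658 genes, of which 20745 (95.784%) had a symbol. A difference of 1 on this scale is a 2-fold difference, and the median gene had a mean of 5.82 over the parental libraries. The lowest 10% of values in each library, those up to a limit between 1.70 and 1.87, are called the bottom of the range, and a difference measured against such values is the size of the fitted difference and not a measured fold. No read counts were given, so the depth behind a value is unknown. The 3 OVSAHO libraries correlated with each other at Pearson's r of 0.981 to 0.982 across genes, with Kuramochi at 0.793 to 0.808, with EFO-21 at 0.740 to 0.745 and with OV-90 at 0.652 to 0.674. The correlation of parental with resistant OVSAHO libraries was 0.953 to 0.960. Genes are not independent replicates, and these values describe the libraries only.

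The label of an ovarian carcinoma line was checked against markers. Of 8 markers of ovarian carcinoma epithelium, 7 lay above the median gene in OVSAHO and 0 were at the bottom of the range in all of its libraries. Their summed level on the log2 scale was 13.48 to 13.53 in OVSAHO, 13.09 to 13.38 in Kuramochi, 13.40 to 13.46 in EFO-21 and 14.29 to 14.52 in OV-90. Of 5 endothelial markers, 4 (PECAM1, CDH5, KDR and TEK) were at the bottom in OVSAHO, as were 5 of 8 hepatocyte markers (ALB, APOA2, APOB, FGB and AFP). The other hepatocyte markers were measured, APOA1 at 8.75 to 8.99, TTR at 5.03 to 6.43 and SERPINA1 at 3.72 to 3.81, and the sum of the 8 was 8.92 to 9.17, against 6.67 to 6.75 in EFO-21 and 10.90 to 10.94 in OV-90. The 7 markers of fibroblasts or stroma summed to 6.75 to 6.96 with PDGFRA at the bottom, against 12.42 to 13.26 in OV-90. The 6 leukocyte markers summed to 7.92 to 8.56 in parental OVSAHO with 0 at the bottom, and to 6.81 to 6.94 in resistant OVSAHO with PTPRC and CD3E at the bottom. RNA was measured in bulk, so fewer cells of a type and less RNA per cell cannot be told apart.

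A set of transcripts, many of them foreign to ovarian epithelium, needs to be known before the results. Most of the set was above the bottom of the range in each parental OVSAHO library. It was found through replicates of other lines that differed: 46 genes were at least 3 (log2) higher in OV-90 library 2 than in OV-90 library 3 and at least 1 higher in Kuramochi library 6 than in libraries 4 and 5. They include immunoglobulin genes such as IGLC2 and IGHG1, and the squamous keratins KRT5, KRT6A, KRT6B, KRT13, KRT14 and KRT16. The haemoglobin gene HBB and the platelet genes PPBP and PF4 are also among them. The rule did not use OVSAHO values, and it also took in small RNA and histone genes such as SCARNA2, SNORA12 and H3C8. At the bottom of the range were 4, 4 and 5 of the 46 in OVSAHO libraries 7, 8 and 9, with C6orf15 in all of them. The median over the 46 genes was 4.95, 4.92 and 4.68 in OVSAHO libraries 7, 8 and 9, 4.96 in OV-90 library 2 and 4.07 in Kuramochi library 6. It was 0.18 in OV-90 library 3, 0.36 and 0.02 in Kuramochi libraries 4 and 5, 1.39 to 1.76 in EFO-21 and 0.41 to 1.63 in resistant OVSAHO. IGLC2 alone read 7.21, 7.65 and 7.35 in parental OVSAHO and 0.01 to 0.02 in resistant OVSAHO. For 34 of the 46 genes (73.9%) every parental OVSAHO library lay above every resistant one, against 23.7% of all genes. In OVSAHO most of the set was above the bottom in all replicates, so the cultures and whatever brought it in cannot be told apart. Its part in other results was not tested. Of the 46, 29 were called higher in OVSAHO than the mean of the other lines, but 1 (GPR15LG) was called higher than in all 3 lines.

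**Figure D1:**
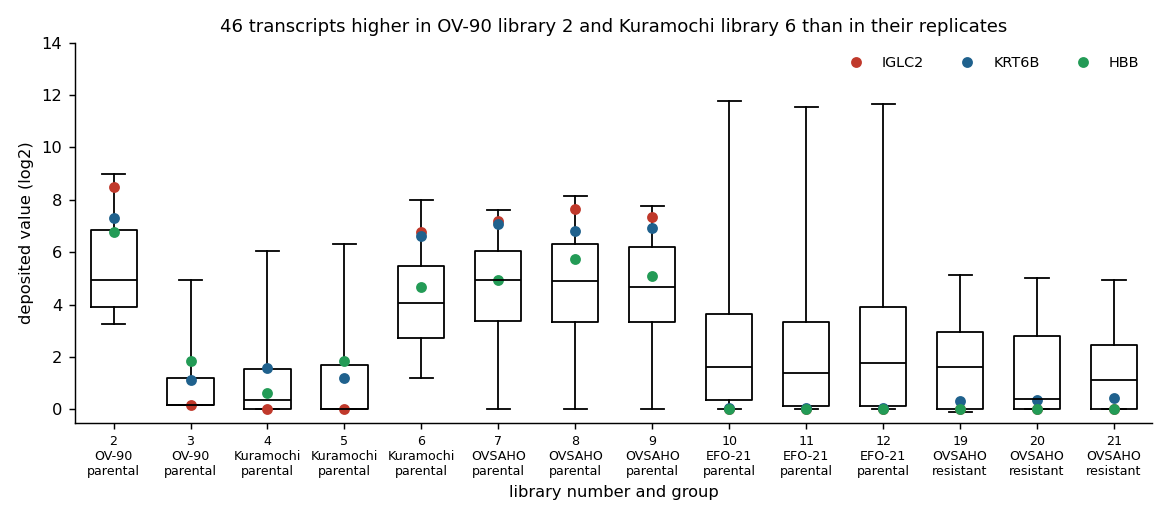
The 46 transcripts of the shared set in 14 libraries: the y axis gives the deposited value on the log2 scale, the x axis the library number and group, the boxes the quartiles with the median as a line, the whiskers the lowest and highest gene, and the coloured points IGLC2, KRT6B and HBB. All 3 parental OVSAHO libraries, OV-90 library 2 and Kuramochi library 6 have medians between 4.07 and 4.96, while the medians of the other 9 libraries do not pass 1.76.

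How far parental OVSAHO stands from the other parental lines was asked first over all genes. Against the mean of the other lines 4199 genes were higher (19.4% of those tested) and 4207 lower (19.4%), or 38.8% in either direction, at an adjusted p below 0.05 (limma, Benjamini-Hochberg) and at least 2-fold. Against single lines, 5574 genes were higher and 4833 lower than in OV-90 (25.7% and 22.3%). The counts were 5012 and 4553 against EFO-21 (23.1% and 21.0%) and 4190 and 3943 against Kuramochi (19.3% and 18.2%). A gene is described below as set apart in OVSAHO where it passed in the same direction against all 3 lines. This held for 1416 genes that were higher (6.54%) and 1119 that were lower (5.17%), and these shares are the background for the counts of gene lists. Without OV-90 library 2 and Kuramochi library 6 the counts were 1486 and 1119, with 1315 and 1017 genes shared with the full fit. The values of the 11 libraries did not overlap between OVSAHO and the rest for 1402 of the genes that were higher and 1088 of those that were lower, where 16.8% of all genes lay above and 12.2% below every other library. A 2-fold call against each line makes such separation nearly certain in advance, so it adds no separate support.

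The genes with the widest margin above every other line included peptide hormone, imprinted and germline genes. SST, which encodes the inhibitory hormone somatostatin, read 13.53, 13.48 and 13.55 in the 3 OVSAHO libraries and 1.37 to 4.08 in the 8 others. The groups did not overlap, and the difference from the mean of the other lines was 10.89 ± 0.54 (SE, adjusted p = 6.36e-08, limma). NDN, which encodes necdin and is expressed from the paternal chromosome only, read 10.80, 10.99 and 10.73 against 0.01 to 1.67. All 8 other libraries were at the bottom of the range for NDN, and the fitted difference was 10.29 ± 0.30 (adjusted p = 2.02e-09). KRT7, a simple epithelial keratin used to recognise ovarian tumours, read 11.40, 11.37 and 11.44 in OVSAHO and 2.40 to 4.34 elsewhere. It was thus high in OVSAHO alone among the parental lines, by 8.26 ± 0.26 against their mean (adjusted p = 3.48e-09) and 7.65 against the nearest line, Kuramochi.

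Other genes of this group were silent or nearly so in the other lines. MAGEA1, a cancer-testis antigen gene of the X chromosome, read 10.30, 10.27 and 10.23 in OVSAHO and 0.58 to 3.20 in the others (difference 8.77 ± 0.22). EYA2, a transcriptional co-activator and phosphatase gene, read 8.70, 8.72 and 8.72 against 0.08 to 1.80 (8.05 ± 0.19). NELL1, which encodes a secreted protein of bone growth, read 8.57, 8.47 and 8.71 against 0.04 to 1.13 (8.09 ± 0.16). These 3 genes showed the same pattern of 3 close OVSAHO values far above 8 low ones. The transcription factor gene FOXR2 differed by 8.66 ± 0.31, with the highest other value, 3.10, in EFO-21. The remaining members by the rule were the long noncoding RNAs LINC00473 (7.64 ± 0.17), LINC00602 (7.47 ± 0.17) and MIR3147HG (8.94 ± 0.23), the pseudogene TMT1AP1 (9.85 ± 0.70) and PABPC5 (7.03 ± 0.28).

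**Figure D2:**
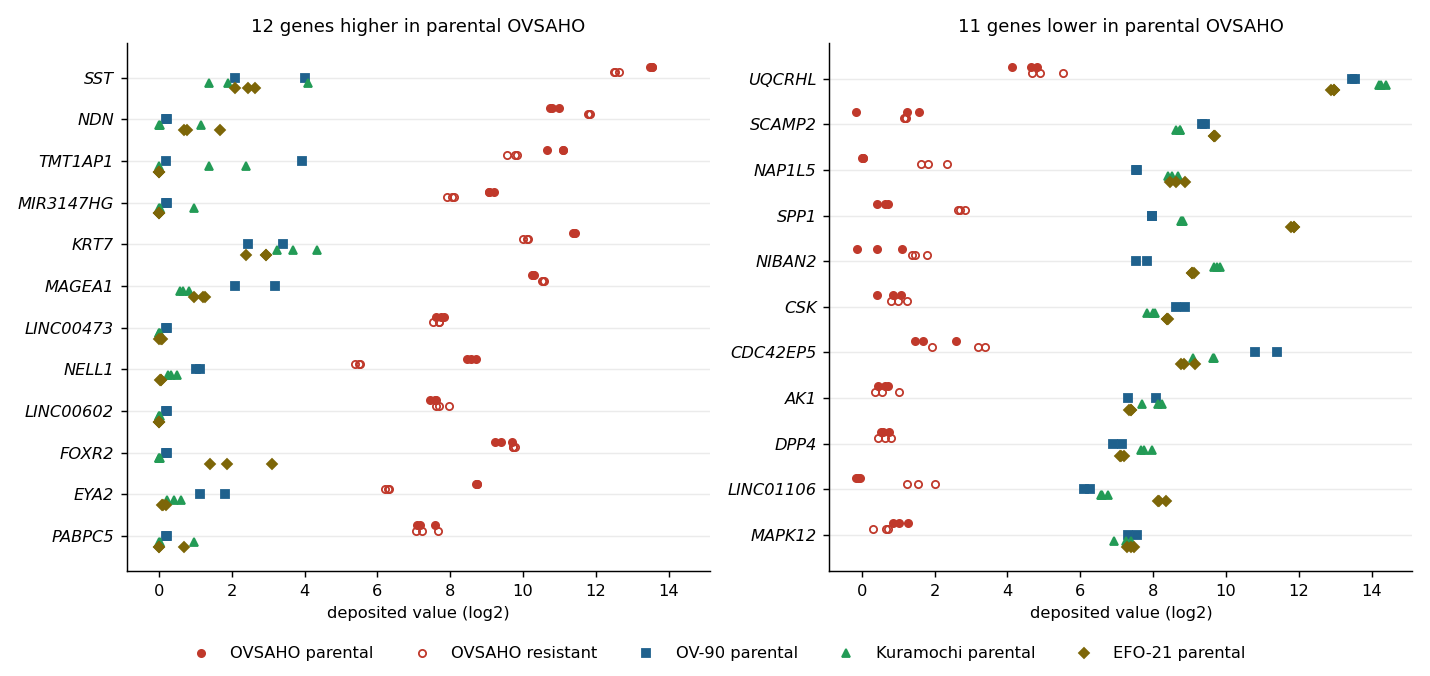
Deposited log2 values per library (x axis) of 12 genes furthest above and 11 of the 12 furthest below every other parental line (y axis, in order of the distance from the nearest line). Filled circles are parental OVSAHO, open circles resistant OVSAHO, squares OV-90, triangles Kuramochi and diamonds EFO-21. In every row the parental OVSAHO points are separate from the 8 points of the other parental lines, which the choice of genes required.

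SST and LINC00473 are both known targets of CREB, the transcription factor of cyclic AMP signalling, so their promoters are shown for the reader to see the element it binds. Both windows are 300 bases, 250 before to 50 after the RefSeq start on GRCh38.p14, on the minus strand at chr3:187670345-187670644 for SST and chr6:165987990-165988289 for LINC00473, and capitals mark TGACG or CGTCA.
SST: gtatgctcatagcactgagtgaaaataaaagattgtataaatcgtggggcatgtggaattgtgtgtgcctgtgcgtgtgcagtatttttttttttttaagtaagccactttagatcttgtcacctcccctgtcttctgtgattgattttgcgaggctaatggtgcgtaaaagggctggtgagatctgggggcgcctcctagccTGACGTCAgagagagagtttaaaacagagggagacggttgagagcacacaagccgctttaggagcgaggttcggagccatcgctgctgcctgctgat
LINC00473: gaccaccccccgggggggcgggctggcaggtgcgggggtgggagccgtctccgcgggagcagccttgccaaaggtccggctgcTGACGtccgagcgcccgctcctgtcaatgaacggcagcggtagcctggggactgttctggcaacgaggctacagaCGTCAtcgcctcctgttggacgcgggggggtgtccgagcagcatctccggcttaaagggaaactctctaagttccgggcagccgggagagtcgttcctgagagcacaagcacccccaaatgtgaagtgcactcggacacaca
The SST window holds the full palindrome TGACGTCA, in which both 5-letter forms overlap, and the LINC00473 window holds 1 of each apart from the other. The search read the letters TGACGTCA, TGACG and CGTCA on the printed strand, where TGACG and CGTCA are each other's reverse complement and so cover both strands. Of 951 promoters of genes higher than in all 3 lines, 24 (2.52%) held TGACGTCA and 294 (30.9%) held TGACG or CGTCA. The shares were 2.92% and 31.7% among 14340 promoters of genes in the table, and among all 27305 promoters of that length 1.98% held TGACGTCA and 6828 held TGACG or CGTCA. The share among genes higher in OVSAHO was thus no larger than among the genes measured, and a match is a description of a sequence and not of a bound site.

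The genes furthest below every other line were mostly broadly expressed ones that lay at the bottom of the range in OVSAHO. SPP1, which encodes the secreted phosphoprotein osteopontin, read 0.71, 0.64 and 0.42 in OVSAHO and 7.96 to 11.87 in the others. Its fitted difference was -8.94 ± 0.07 (adjusted p = 1.42e-12, limma). SCAMP2, a vesicle membrane protein gene, read 1.58, -0.16 and 1.24 against 8.64 to 9.69. Its neighbour CSK, which encodes the kinase that restrains SRC family kinases, read 0.43, 1.08 and 0.85 against 7.84 to 8.87. Both were at the bottom of every OVSAHO library and well above the median gene in every other parental library. NIBAN2 (-8.38 ± 0.21), AK1, which encodes adenylate kinase 1 (-7.09 ± 0.17), DPP4, which encodes a cell surface peptidase (-6.69 ± 0.11), and the kinase gene MAPK12 (-6.29 ± 0.14) had the same pattern. NAP1L5, like NDN an imprinted gene, read 0.02, 0.02 and 0.01 in OVSAHO and 7.53 to 8.87 in the other lines. CDC42EP5 (-7.92 ± 0.24) and LINC01106 (-7.12 ± 0.11) complete the group with UQCRHL.

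UQCRHL needs its parent gene beside it. UQCRH encodes a hinge protein of respiratory complex III, and UQCRHL is an intronless copy so similar in sequence that reads of one may be counted to the other. UQCRHL read 4.12, 4.81 and 4.66 in OVSAHO against 12.90 to 14.40 elsewhere, and UQCRH read 2.67, 2.91 and 2.56 against 8.62 to 9.73. Both were lower in every OVSAHO library than in every other parental library, with differences of -9.05 ± 0.12 for UQCRHL and -6.51 ± 0.09 for UQCRH. The values cannot tell which copy the reads came from.

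Genes at the bottom of OVSAHO were then counted by a rule on the level in each line. Its limits force a wide difference, so it is not independent of the ranking above. In all 3 OVSAHO libraries 1555 genes (7.18%) were at the bottom. Of these, 23 were above the median gene in the mean of each of the other 3 lines, and 12 of the 23 were also at the bottom in all 3 resistant OVSAHO libraries. Under the same rule 37 genes were found for OV-90, 8 for Kuramochi and 8 for EFO-21. Besides genes already named, the 23 included MSX2, a homeobox gene of Mullerian and limb development (1.53, 1.55 and 1.28), NRP1, a receptor for VEGF and semaphorins (0.72, 1.10 and 0.46), and SELENBP1 (0.91, 1.67 and 1.14). SELENBP1 read 4.53 to 4.69 in resistant OVSAHO.

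Some of these genes were neighbours. Within 300 kb of SCAMP2 on chromosome 15, 4 of 14 measured genes (CSK, CPLX3, ULK3 and SCAMP2) were at the bottom of OVSAHO, beside 7.18% of all genes. CSK and SCAMP2 lie at chr15:75074421-75095538 and chr15:75136071-75165706 on GRCh37, with CPLX3 and ULK3 between them. A further 6 of the 14 were not called against the mean of the other lines, and SCAMP5, beyond SCAMP2, was higher than in all 3 lines. Around AK1 on chromosome 9, 3 of 25 genes were at the bottom (SH2D3C, AK1 and NIBAN2) and 18 were not called, and around UQCRH on chromosome 1, 9 of 15 were not called. SCAMP2, CSK, AK1 and NIBAN2 had been named for their low values, so their part in these counts follows from that choice. Besides AK1 and NIBAN2, SH2D3C was the only gene at the bottom around AK1. CPLX3 was also at the bottom in 2 Kuramochi libraries (0.01 and 0.03). Over all genes 13252 of 21658 were not called, so neighbours that were not called are usual and not particular to these places. Copy number was not measured, so a lost segment and a silent one cannot be told apart.

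**Figure D3:**
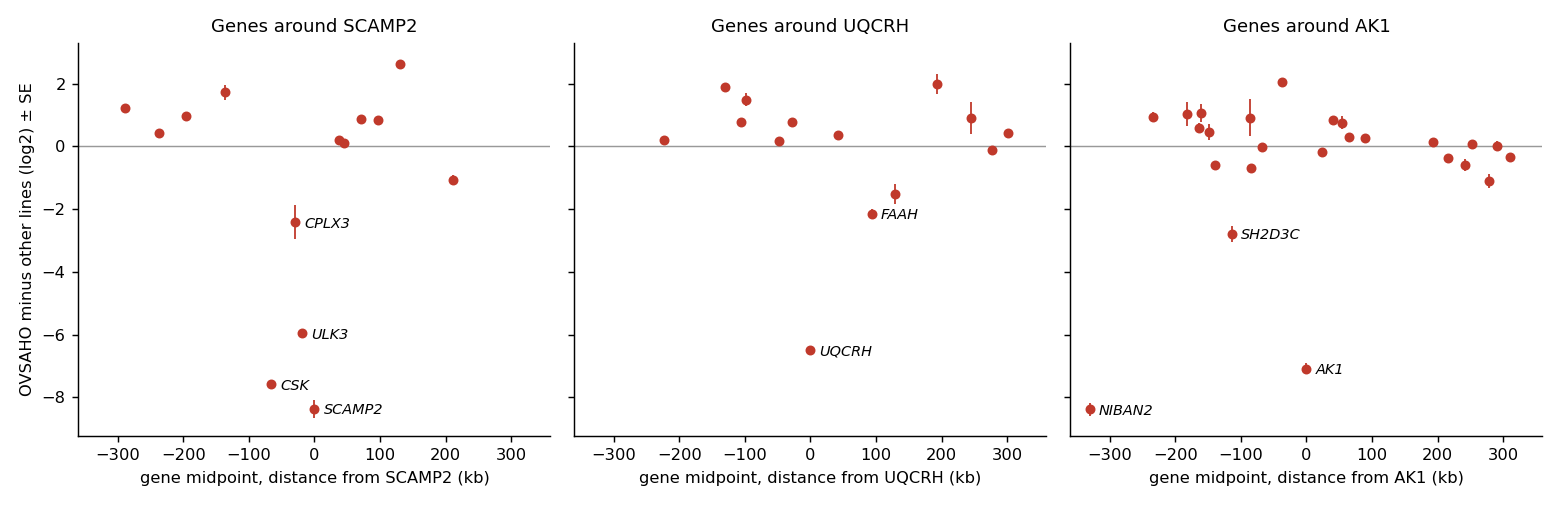
Difference of parental OVSAHO from the mean of the other parental lines (y axis, log2, points with bars of 1 SE) for the genes around SCAMP2, UQCRH and AK1, by distance of the gene's midpoint from that of the named gene (x axis, kb). CSK (-7.58), ULK3 (-5.96) and SCAMP2 (-8.37) lie within 1 stretch that also holds CPLX3 (-2.41), UQCRH (-6.51) is the lowest gene of its panel, and NIBAN2 (-8.38) at the left edge of the AK1 panel lies below AK1 (-7.09).

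Lineage genes were asked about next, from a list of transcription factors and receptors of the Mullerian tract and its differential diagnoses. Of 24 measured genes, 12 were higher and 9 lower than the mean of the other lines, and 5 were higher (20.8%) and 1 lower (4.17%) than in all 3 lines, beside 6.54% and 5.17% of all genes. The median difference was 0.70, against 0.05 for all genes. It was 0.892 against OV-90 and 0.475 against EFO-21, but 0.009 against Kuramochi, so it was not shifted against each line. PAX8, which marks the Mullerian secretory epithelium, read 8.95, 9.04 and 9.06 in OVSAHO. It was 9.27 to 9.50 in Kuramochi and 8.42 to 8.46 in EFO-21, and only OV-90, at 1.77 and 2.43, was low. WT1, a marker of serous carcinoma, read 8.19, 8.27 and 8.30 in OVSAHO and 7.89 to 8.05 in Kuramochi, against 0.90 to 1.99 in EFO-21 and OV-90. For both factors OVSAHO was therefore near Kuramochi, with differences of -0.36 for PAX8 and 0.29 for WT1.

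OVSAHO was set apart by a steroid receptor and homeobox genes. ESR1, the oestrogen receptor gene, read 6.47, 6.26 and 6.53 in OVSAHO and 0.08 to 1.61 in the 8 others. All other libraries were at the bottom of the range, and the fitted difference was 5.54 ± 0.24. EMX2, a homeobox gene needed for the Mullerian duct and kidney, read 10.75, 10.85 and 10.89 against 9.35 to 9.38 in Kuramochi and 8.56 to 8.65 in EFO-21. LHX1 (difference 4.25 ± 0.12) and MEIS1 (2.16 ± 0.07), both homeobox genes, were also higher than in every other line. FOXL2, the transcription factor of ovarian granulosa cells, was lower than in all 3 lines, at 0.02, 2.07 and 2.73 in OVSAHO against 8.51 to 9.36 in OV-90 and EFO-21 and 2.74 to 4.33 in Kuramochi, so that its values nearly met those of Kuramochi. GATA4 and GATA6 differed from the mean of the other lines by -3.51 and -3.55, but were not lower than every line.

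Epithelial genes were divided. Of 38 genes of epithelial junctions and identity, 4 were higher than in all 3 lines (10.5%) and 6 lower (15.8%). The median difference was -0.35 against the mean, -1.76 against OV-90 and -0.50 against EFO-21, but 0.64 against Kuramochi. Besides KRT7, the tight junction genes CLDN3 (12.23, 12.23 and 12.08, difference 2.72 ± 0.23) and TJP3 (3.07 ± 0.15) were higher. ESRP2, a splicing regulator of epithelial cells, was higher by 2.85 ± 0.10, while its paralog ESRP1 was lower, at 1.51, 0.97 and 0.83 against 3.92 to 5.95 (-3.60 ± 0.17). Simple keratins also went in opposite directions. KRT19 read 5.55, 5.59 and 5.76 in OVSAHO and 8.32 to 13.44 elsewhere (-5.70 ± 0.11), and KRT18 was also lower (-2.15 ± 0.10), so that KRT7 and KRT19 had opposite patterns across the lines. CDH1, which encodes E-cadherin, read 8.09, 8.07 and 8.27, close to the mean of OV-90 (8.56) and above Kuramochi and EFO-21 (4.39 to 4.88). EPCAM, an epithelial adhesion gene, read 8.76, 8.82 and 8.91, between Kuramochi (6.27 to 6.59) and EFO-21 (10.58 to 10.72), and it was not called against the mean (-0.98 ± 0.09).

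Genes of the mesenchymal state and of matrix were divided by line. Of 41 measured genes, 22 were lower and 5 higher than the mean of the other lines, and 9 were lower (22.0%) and 0 higher than in all 3 lines. The median difference was -1.13 against the mean, -2.18 against Kuramochi and -1.07 against EFO-21, but 0.10 against OV-90. FN1, which encodes fibronectin, read 4.03, 4.35 and 4.70 in OVSAHO against 6.26 to 13.50 (-5.99 ± 0.30). The matrix protease gene MMP14 (2.51, 2.46 and 2.75 against 7.80 to 9.56), the smooth muscle actin gene ACTA2 (-5.86 ± 0.14) and the receptor kinase gene AXL (-4.96 ± 0.16) were lower than in every line. Also below every line were THBS1, COL6A1, ITGA5 and FBN1, which encode thrombospondin, a collagen VI chain, the fibronectin receptor subunit and fibrillin. In contrast, VIM, which encodes the intermediate filament vimentin, read 12.08, 12.10 and 12.27, above OV-90 by 8.27 and above Kuramochi by 0.53. CDH2, which encodes N-cadherin, read 8.80 to 9.08 in OVSAHO, 8.56 to 8.96 in Kuramochi, 9.99 to 10.04 in EFO-21 and 1.60 to 1.71 in OV-90. OVSAHO thus expressed both E-cadherin and N-cadherin transcripts, and low fibronectin beside high vimentin.

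Among 27 ovarian cancer surface and secreted antigens, 2 were higher than in all 3 lines (7.41%) and 3 lower (11.1%). WFDC2 read 12.64, 12.56 and 12.61 in OVSAHO against 10.43 or less in Kuramochi, the nearest line (difference from the mean 5.49 ± 0.27). MUC16 read 6.74, 7.0 and 6.83 in OVSAHO, 5.48 to 5.78 in EFO-21, 2.29 to 2.77 in Kuramochi and 0.93 to 1.37 in OV-90. OVSAHO was highest for both serum marker genes. MSLN, which encodes mesothelin, read 8.69 to 8.77 and FOLR1, the folate receptor gene, 9.18 to 9.37. These 2 were higher than the mean of the lines but not than every line, since mesothelin was 0.76 above Kuramochi and the folate receptor 0.55 above OV-90. CD44, an adhesion receptor often used to mark stem-like cells, read 2.40, 2.27 and 2.39 against 4.15 to 8.95, and F3, the tissue factor gene, was also lower (-3.24 ± 0.10). The median of the list was -0.16, but 0.35 without OV-90 library 2 and 0.20 without OVSAHO library 8, so it has no stable sign.

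Kallikreins, secreted serine proteases encoded side by side on chromosome 19, included several tumour marker genes that were high. Of 10 measured genes, 4 were higher than in all 3 lines (KLK6, KLK7, KLK8 and KLK9) and 1 was lower (KLK1). KLK6 read 9.55, 9.45 and 9.53 in OVSAHO, 7.95 to 8.20 in Kuramochi and 1.33 to 5.22 in the other lines. KLK7 read 8.91, 8.68 and 8.76, above Kuramochi by 2.31. KLK8 was above Kuramochi by 1.62, so Kuramochi was the next line for these 3 genes. KLK1, the tissue kallikrein gene, read -0.06, 1.51 and 0.53 against 9.56 and 10.17 in OV-90. Of 20 keratins, 9 were higher than the mean of the other lines, but KRT5, KRT6A, KRT6B, KRT6C, KRT13, KRT14 and KRT16 among these belong to the shared set of 46 transcripts and were not higher than in all 3 lines. KRT7 was not in that set, and it read 10.01 to 10.13 in resistant OVSAHO.

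The HOX genes, which specify position along the body axis and whose posterior HOXA members pattern the Mullerian tract, gave a break within a cluster. Of 38 measured genes, 8 were higher and 23 lower than the mean of the other lines, and 1 was higher (2.63%) and 8 lower (21.1%) than in all 3 lines. The median difference was -1.13 against OV-90 and -2.17 against EFO-21, but -0.04 against Kuramochi. Within HOXA, 4 of 5 genes from HOXA2 to HOXA6 were higher than the mean and 0 lower, with a median difference of 1.28. Of these 5, 1 was higher than in all 3 lines. From HOXA7 to HOXA13, 0 of 5 were higher and 5 lower, with a median of -4.15, and 3 were lower than in all 3 lines. HOXA4 read 7.05, 7.21 and 6.90 in OVSAHO and 0.72 to 3.05 in the other lines (5.24 ± 0.25). HOXA9, which in the embryo marks the future fallopian tube, read 0.02, 0.02 and 0.99 against 4.30 to 8.59, HOXA10, of the uterus, 1.71, 1.76 and 1.27 against 4.94 to 6.33, and HOXA11 2.30, 2.23 and 2.07 against 5.83 to 7.33. OVSAHO was the one parental line with low values for all 3 posterior genes. In HOXD, 8 of 9 genes were lower than the mean and 0 higher (median -2.42), and 3 were lower than in all 3 lines. In HOXB and HOXC 5 of 9 each were lower than the mean, with 1 and 3 higher. Lower than in all 3 lines were 0 genes of HOXB and 2 of HOXC.

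**Figure D4:**
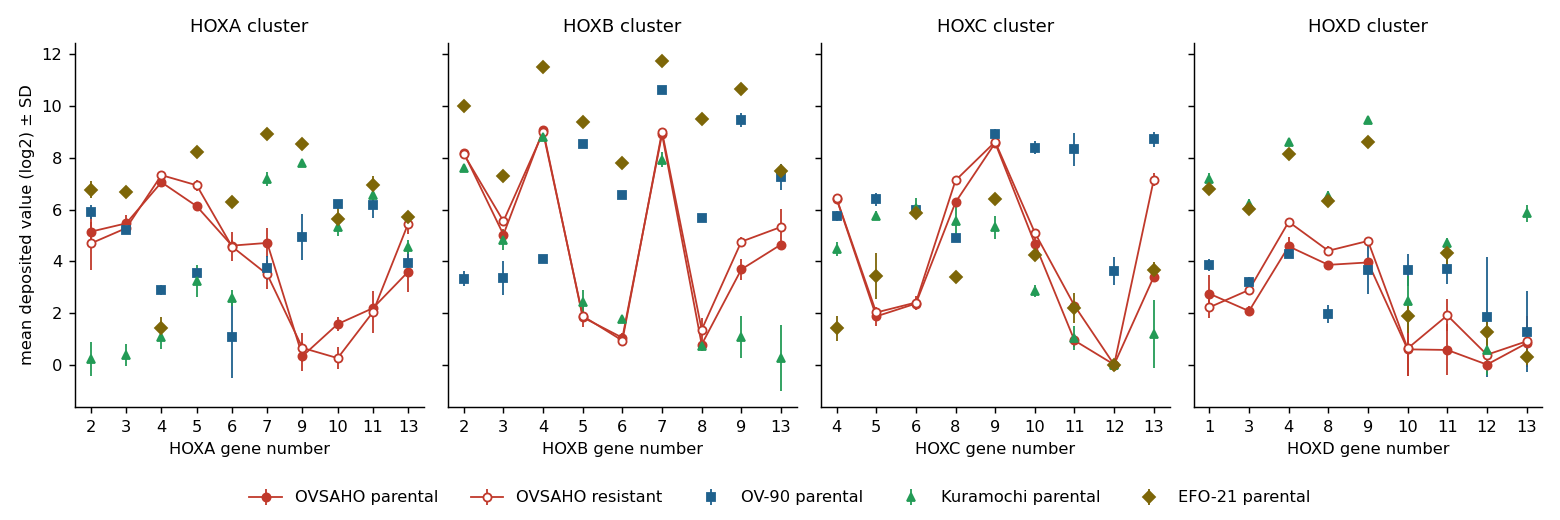
Mean deposited log2 value ± SD (y axis) of the genes of the 4 HOX clusters in order of their number (x axis), with parental OVSAHO as filled circles joined by a line, resistant OVSAHO as open circles, OV-90 as squares, Kuramochi as triangles and EFO-21 as diamonds. In the HOXA panel OVSAHO lies at 4.61 or above from HOXA2 to HOXA6 and is the lowest of the 4 parental lines at HOXA9, HOXA10 and HOXA11.

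Cell cycle and replication genes, the pathway that prexasertib acts on, differed less than most lists. Of 49 genes of ATR-CHK1 signalling and the replication fork, 0 were higher and 2 lower (4.08%) than in all 3 lines, and 40 were not called in either direction against the mean. CHEK1, which encodes the drug's target CHK1, was 1 of the 2. It read 5.52, 5.59 and 5.56 in OVSAHO, 6.65 to 6.81 in Kuramochi, 7.31 and 7.33 in OV-90 and 7.46 to 7.63 in EFO-21, a difference of -1.66 ± 0.07 from their mean (adjusted p = 2.75e-08, limma). GMNN, which encodes geminin, the inhibitor of re-replication, was the other (-1.33 ± 0.08). TIMELESS, a fork protection gene (9.30, 9.35 and 9.42), was higher than the mean by 1.15 ± 0.09 but above EFO-21 by only 0.88. ATR itself read 7.69 to 7.89 and did not reach a 2-fold difference (0.67 ± 0.16), nor did WEE1, a mitotic inhibitor kinase gene (0.81 ± 0.09). Of 34 homologous recombination and Fanconi genes, 0 were set apart in either direction and 2 each were higher and lower than the mean (limma). BRCA2 read 3.78, 3.83 and 3.95 against 4.25 to 5.23 in all 8 others, and its difference of -0.93 ± 0.22 was under 2-fold. These shares of genes set apart were below the background.

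Regulators of the G1/S transition were set apart at about the rate of all genes. Of 35 genes, 2 were higher and 2 lower than in all 3 lines (5.71% each), beside 6.54% and 5.17% of all genes. The members below are therefore single genes and not a result about the list. CDKN2C, which encodes the CDK4 and CDK6 inhibitor p18, read 11.42, 11.33 and 11.52 in OVSAHO and 6.40 to 9.89 elsewhere (3.18 ± 0.09), and RBL1, an RB family gene, was higher by 1.40 ± 0.17. CDKN1A, which encodes the CDK inhibitor p21, read 4.68, 5.08 and 5.05 against 7.21 to 8.03 (-2.65 ± 0.10), and MYCN was also lower (-1.75 ± 0.21). Of these inhibitor genes, CDKN2C was thus higher and CDKN1A lower. CCNE1, the cyclin E1 gene, read 8.73, 8.72 and 8.65 against 7.74 to 8.04, above every other library but by less than 2-fold (0.81 ± 0.06). RB1 read 5.56, 5.80 and 6.01, within the range of OV-90 and EFO-21 (4.94 to 6.05), and was not called (adjusted p = 0.157). Of 24 p53 targets, 1 was higher (4.17%) and 2 lower (8.33%) than in all 3 lines. The p53 target EDA2R, a receptor gene, read 4.21, 4.82 and 4.57 against 0.18 to 2.41 (3.34 ± 0.23).

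Immune genes were asked about because the study was concerned with innate immunity in resistance to prexasertib. Of 48 interferon-stimulated genes, 23 were lower and 6 higher than the mean of the other lines, with a median difference of -0.77, and 3 were higher (6.25%) and 5 lower (10.4%) than in all 3 lines. The median was -1.51 against EFO-21, -0.18 against Kuramochi and 0.31 against OV-90, so it was not lower against each line. IRF7, the transcription factor that amplifies interferon production, read 0.41, 0.56 and 0.84 in OVSAHO, the bottom of the range, against 5.29 to 6.42. BST2, which encodes the virus-tethering protein tetherin, went the other way at 11.10, 11.13 and 11.06 against 4.24 to 9.27 (3.66 ± 0.15). The antiviral membrane protein gene IFITM1 read 13.97, 13.95 and 13.89 against 11.80 to 12.58 (1.75 ± 0.10). Of 18 genes of nucleic acid sensing, 3 were lower than in all 3 lines and 0 higher. STING1, the adaptor of cytosolic DNA sensing, read 5.85, 5.65 and 5.73 against 6.82 to 9.55 (-2.48 ± 0.07), and IFI16, a DNA sensor gene, 3.28, 3.42 and 3.76 against 5.77 to 9.55 (-3.98 ± 0.12). CGAS, the sensor upstream of STING, read 1.56, 0.86 and 1.95 in OVSAHO, with OV-90 as low in library 2 (1.0). The median of the sensing list was 0.35 against the mean of the lines, 0.76 against OV-90, 0.17 against Kuramochi and -0.97 against EFO-21.

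Of 38 measured genes of the NF-kappaB response, chemokines and cytokines, 17 were lower, 7 higher and 14 not called against the mean, and 8 were lower (21.1%) and 2 higher (5.26%) than in all 3 lines. The median difference was -0.61 against the mean, -1.56 against EFO-21, -0.73 against OV-90 and -0.25 against Kuramochi. CXCL8, the neutrophil chemokine interleukin 8 gene, read 4.37, 3.83 and 4.48 in OVSAHO against 7.35 to 11.96 (-5.22 ± 0.15). CXCL1 (-4.25 ± 0.08), CCL20 (-4.81), IL6 (-4.32 ± 0.24) and the adhesion gene ICAM1 (3.16, 3.15 and 3.39 against 4.87 to 11.06) were also below every line. TNF, itself an activator of the pathway, was higher at 6.55, 6.78 and 6.69 against 1.73 to 4.89 (3.70 ± 0.15), and NFKB2, a subunit gene, was higher by 1.26 ± 0.07. TNF and NFKB2 were therefore on the other side from the chemokine genes named here. Of 28 antigen presentation genes, 1 was higher than in all 3 lines, the immunoproteasome gene PSMB9 (6.20, 6.24 and 6.06 against 3.60 to 4.75), and 0 were lower.

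Among 37 growth factor receptor and ligand genes, 17 were lower and 8 higher than the mean of the other lines, and 6 were lower (16.2%) and 1 was higher (2.70%) than in all 3 lines. The median difference was -0.89 against the mean, -1.47 against EFO-21 and -0.64 against Kuramochi, but 0.16 against OV-90. The members with the largest negative differences were IGFBP7, IGF2 and IGF1R, of insulin-like growth factor signalling. IGF1R, the receptor gene, read 2.43, 2.42 and 2.76 against 6.13 to 7.59 (-4.27 ± 0.17), and the ligand gene IGF2 read 2.36, 2.52 and 2.11 against 4.74 to 11.12 (-5.54 ± 0.23). The binding protein gene IGFBP7 read 3.49, 3.17 and 3.34 against 6.37 to 11.54 (-6.24 ± 0.09). All 3 were below every other parental library. The receptor kinase gene RET was the one higher, at 4.20, 3.78 and 4.35 against 0.56 to 1.28 (3.21 ± 0.24). VEGFC, a lymphatic growth factor gene, was high in OVSAHO (6.67 to 6.79) and Kuramochi (7.01 to 7.33) and at the bottom in OV-90 and EFO-21.

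Cancer-testis genes, which are normally silent outside the germline, were divided. Of 21 measured genes, 6 were higher than in all 3 lines (28.6%) and 0 lower, while 8 were higher and 9 lower than the mean of the other lines. The median difference was -0.97 against the mean and -2.47 against OV-90, but 0.67 against Kuramochi and 0.81 against EFO-21. The list as a whole was therefore not higher in OVSAHO, and 1 of the 21 had a parental mean above the median gene. Besides MAGEA1, MAGEA4 read 8.63, 8.63 and 8.66 in OVSAHO against 0.17 to 2.12 (7.73 ± 0.17), and CT45A1 read 6.61, 6.51 and 6.49 against 0.01 to 0.56 (6.32 ± 0.20). XAGE1B (6.63 ± 0.20), PAGE5 (5.52 ± 0.31) and GAGE1 (4.55 ± 0.40) were the others. GAGE, XAGE, PAGE, CT45 and MAGEA genes belong to families of near-identical copies, so a value may hold reads of several copies. MAGEA3, of the same family as MAGEA1, was at 0.71, 0.77 and 0.77 in OVSAHO and 5.37 to 7.75 in Kuramochi and OV-90. OVSAHO thus expressed MAGEA1 and MAGEA4 but not MAGEA3 above the bottom of the range.

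Of 29 aldehyde dehydrogenases, NRF2 targets and transporters, 16 were lower and 3 higher than the mean of the other lines, and 6 were lower (20.7%) and 3 higher (10.3%) than in all 3 lines. The median difference was -1.12 against the mean, -1.68 against OV-90 and -1.10 against EFO-21, but 0.10 against Kuramochi. NQO1, a classic target of the oxidative stress factor NRF2, read 6.80, 6.78 and 6.58 against 7.63 to 11.35 (-2.70 ± 0.10). AKR1C3, a ketosteroid reductase gene, read 2.91, 3.09 and 2.82 against 6.92 to 8.27 (-4.88 ± 0.12), and SLC7A11, the cystine transporter gene, 2.29, 2.33 and 2.77 against 4.39 to 7.0 (-3.71 ± 0.26). ALDH1A1, often used to mark stem-like cells, read 5.39, 5.23 and 5.24, below OV-90 and EFO-21 (10.77 to 13.71) and above Kuramochi (2.97 to 3.28). The glutathione transferase gene GSTM1 (6.76, 6.67 and 6.85 against 0.35 to 3.70) and the aldose reductase gene AKR1B1 (11.81, 11.73 and 11.92 against 8.87 to 10.39) were higher than in every line. GSTM1 is absent from the genome of many people, and whether the other lines carry it was not measured.

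**Figure D5:**
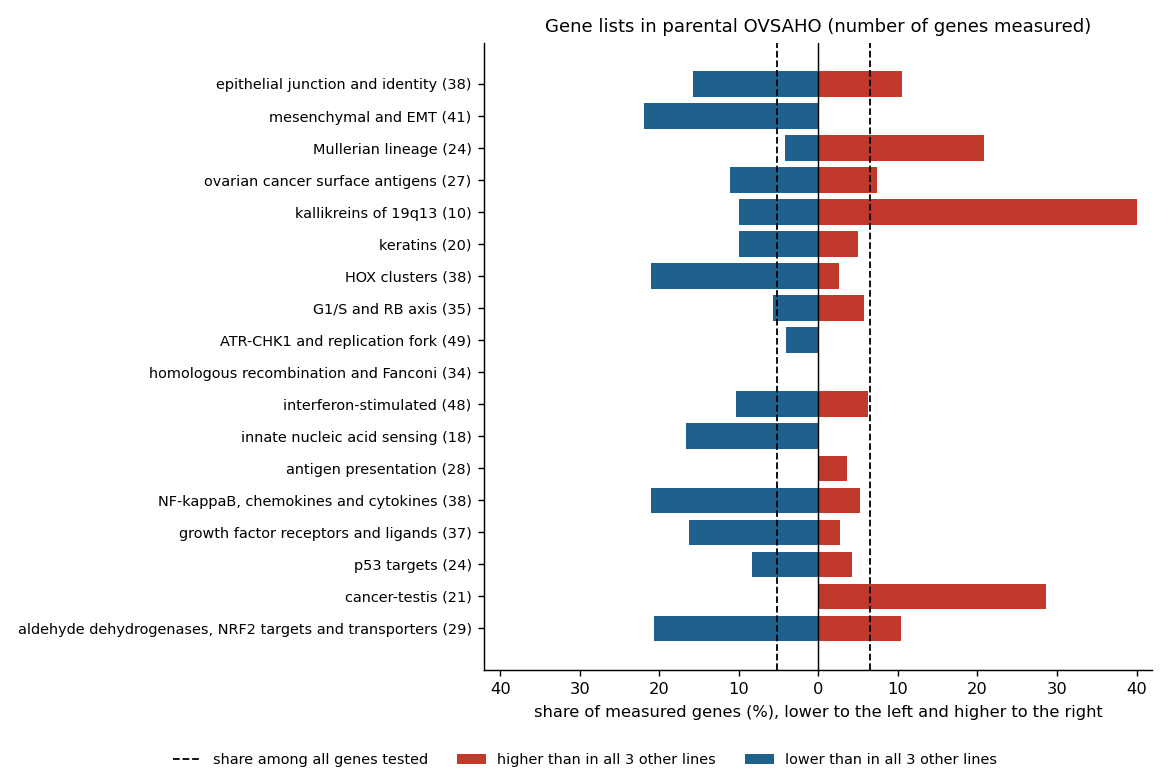
Share of the measured genes of each of the 18 lists (y axis, with the number measured) that were higher (red, to the right) or lower (blue, to the left) in parental OVSAHO than in all 3 other parental lines, in percent (x axis). The dashed lines mark the shares among all genes, 6.54% higher and 5.17% lower. The bars furthest past them are the kallikreins at 40.0% and the cancer-testis genes at 28.6% on the higher side and the mesenchymal genes at 22.0% on the lower side.

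Genomic neighbourhoods of genes often altered in ovarian cancer were read on GRCh37, counting genes whose highest line mean was above the median gene. Within 2 Mb of BRCA2 on chromosome 13, 7 of 10 such genes were lower than the mean of the other lines and 0 higher, with a median of -1.34. Of these, HMGB1 (-1.49 ± 0.08), USPL1 (-1.50 ± 0.22) and N4BP2L2 (-1.49 ± 0.10) were lower than in all 3 lines. Within 2 Mb of RB1 on the same chromosome, 12 of 28 were lower and 1 higher, with a median of -0.86, beside 2846 lower and 2721 higher of 15628 genes in all and a median of 0.03. LPAR6, a receptor gene that lies within an intron of RB1, read 3.22, 2.82 and 2.18 in OVSAHO against 8.46 to 10.95 in OV-90 and Kuramochi. It was as low in EFO-21 (2.31 to 3.53), so it was not particular to OVSAHO. Within 2 Mb of CCNE1 on chromosome 19, 2 of 10 genes were higher and 0 lower, with a median of 0.33, and the widest difference was that of LINC01532 (6.24 ± 0.16). Within 2 Mb of MYC 0 of 4 were higher and 1 lower.

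Windows of 15 consecutive genes were then ranked along every chromosome by their median difference. Among 14061 windows the 1st to 99th percentile of the medians was -1.59 to 1.74. The highest lay at chr19:37173538-38397317, from ZNF567-DT to WDR87, with a median of 2.74, and all 15 genes were called higher than the mean and 11 higher than in all 3 lines. It consists mostly of zinc finger genes of the KRAB type, repressors that bind repeat elements, among them ZNF568 (3.23), ZNF793 (3.39) and ZFP30 (3.08). On chromosome X at chrX:101380651-102884618, a window of BEX and TCEAL genes had a median of 2.34 with 11 of 15 genes higher than the mean, and BEX1, a signalling adaptor gene of neurons, read 8.11, 8.15 and 8.11 against 0.37 to 1.69. At chr10:76584685-81076276, from the histone acetyltransferase gene KAT6B to the SUMO ligase family gene ZMIZ1, 14 of 15 genes were higher than the mean and 9 higher than in all 3 lines, with a median of 2.19 (2.09 in the resistant lines). The windows are ranked by these values, so no test is given.

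The lowest windows differed in what they shared with other lines. The UGT1A window at chr2:233562009-234681946 had a median of -4.75, but -0.35 against Kuramochi, and its overlapping gene models share exons and so are not separate measurements. The chemokine window at chr4:73918079-75320722 (median -3.06, and -0.03 against Kuramochi) holds CXCL8, CXCL6, CXCL1, CXCL5, CXCL3 and CXCL2 beside EREG and AREG. The posterior HOXA window at chr7:27185015-29553944 (median -2.65) held 8 genes lower than in all 3 lines. It was also negative against each line, at -2.13 against OV-90, -2.63 against Kuramochi and -4.06 against EFO-21.

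Zinc finger genes of chromosome 19 were counted as a family after this window had been seen. Of 244 measured, 43 were higher than in all 3 lines (17.6%) and 22 lower. The window that prompted the count lies on the long arm and its genes are among them. Outside that window 32 of 226 were higher than in all 3 lines (14.2%) and 22 lower. On the short arm side, 60 of 82 were higher than the mean of the other lines and 5 lower, 25 were higher than in all 3 lines (30.5%), and the median was 1.64. On the long arm side, 35 of 162 were higher and 29 lower, with a median of -0.08. Outside the window the long arm side held 7 of 144 higher than in all 3 lines (4.86%) and 20 lower, with a median of -0.25, so the short arm genes are not an extension of the window. Of 241 zinc finger genes of other chromosomes, 22 were higher than in all 3 lines (9.13%). The short arm median was 2.50 against OV-90, 1.63 against Kuramochi and 0.62 against EFO-21.

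The resistant libraries, which did not enter the parental fit, were used to see whether the differences recurred. They derive from the same 4 lines and are not independent lines. Parental values chose the genes counted here, so changes of size between the 2 states are a description. Of the 1416 genes higher than in all 3 parental lines, 1268 (89.5%) were also higher in resistant OVSAHO than in the mean of the other resistant lines, beside 19.1% of all genes, and 8 were called in the opposite direction. Of the 1119 lower genes, 1006 (89.9%) were also lower, beside 19.8% of all genes, and 3 were opposite. For 260 and 302 genes the size of the difference itself changed between the parental and resistant lines (interaction, adjusted p below 0.05 and at least 2-fold, limma), where 10.7% of all genes passed. MUC16 was 1 of these, at 2.35, 2.19 and 2.27 in resistant OVSAHO, and its difference from the other lines was -0.04 there against 3.76 in the parental cells (interaction -3.80, adjusted p = 2.5e-10, limma). PAGE5, EDA2R and IFI16 also changed, by -3.97, -2.35 and 2.76. KRT7, MAGEA1, NDN, ESR1 and WT1 stayed on the same side, with differences of 7.40, 9.20, 10.27, 6.01 and 5.15 in the resistant lines.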

How the data were processed

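RNA of 4 ovarian cancer cell lines was measured in 23 libraries, 11 of parental and 12 of prexasertib-resistant cells. Per the study's methods, stranded poly(A) libraries were sequenced as paired ends and aligned to GRCh37/hg19, and reads of exons and junctions were combined into gene values by robust linear regression. Quantile normalization followed. The deposited table marks 16448 genes as fitted in that way and 5210 as means over exons (log2). The authors deposited 1 table of log2 values, with the number of exons and their weights per gene. Read counts were not used here, so no count test was possible and depth is unknown.

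Libraries were grouped by column names matched to the labels. Gene names came from RefSeq tables and positions from a GRCh37 annotation. Group means of the 11 parental libraries were fitted with limma 3.58.1 (R 4.3.3) with a mean-variance trend and 7 residual degrees of freedom. The contrast was OVSAHO minus the mean of the other 3 line means, and OVSAHO minus each line. A gene was called at a Benjamini-Hochberg adjusted p below 0.05 over 21658 genes and at least 2-fold. The resistant contrast and the interaction came from a fit of all 23 libraries. All tests were 2-sided. Simulated data had 200 of 21658 genes changed by 2 (log2). Against the mean of the other lines the parental fit recovered 99.5% of these, with 3 unchanged genes called. Against all 3 lines it recovered 96.5%, with 0 unchanged genes called. In the measured data 38.8% of genes were called against the mean, far more than were changed in the simulation. The simulated figures therefore check the fit and are not error rates of the reported calls. Recovery near the bottom of the range was not given separately.

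The 12 genes named in each direction had the largest difference from the nearest line among genes called against all 3 lines, with non-overlapping libraries and the higher side above the median gene. From each of 18 lists the defining members and up to 3 per direction with the largest differences were named. Some of these genes and 1 neighbourhood are not reported here. Other genes were named after their values were seen. The lines, the 18 lists and the tests were chosen with earlier results of these data known. Summaries and figures used Python 3.11.15, pandas 2.3.3 and matplotlib 3.10.9. Alternatives were all 23 libraries in one fit, no trend, a filter on low values, recentred libraries, other fold limits, library weights, another reference mean, and leaving out libraries.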

Additional observations from a re-analysis of the deposited data

Results flagged for a closer look

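For 9 of the 24 genes with the widest margins, the difference of OVSAHO from the other lines was not the same size in parental and in resistant cells, by a test of the interaction (limma over all 23 libraries). Among all genes 10.7% passed the same test. The 24 genes were ranked by their parental values, which the interaction also uses. A smaller difference in the resistant lines is therefore likely from the choice alone, and the changes are a description. Sizes are resistant minus parental differences. A group of 4 genes that were high in parental OVSAHO had a smaller difference in the resistant lines: NELL1 by -2.89 (adjusted p = 3.4e-09, limma), EYA2 by -2.46 (2.8e-07), MIR3147HG by -2.23 (4e-06) and SST by -2.17 (0.0087). For NELL1 the OVSAHO values were 8.47 to 8.71 in parental and 5.39 to 5.53 in resistant cells, and for EYA2 8.70 to 8.72 and 6.21 to 6.32.

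The other 5 genes were low in parental OVSAHO, and their difference was smaller in the resistant lines: NAP1L5 by 4.20 (adjusted p = 1.4e-07, limma), SPP1 by 3.22 (5.5e-14), CDC42EP5 by 2.02 (0.00031), LINC01106 by 1.98 (1.3e-06) and NIBAN2 by 1.09 (0.0012). These sizes combine OVSAHO with the other lines. The mean of NAP1L5 went from 0.02 in parental to 1.93 in resistant OVSAHO and from 8.65 to 1.92 in EFO-21, and that of SPP1 from 0.59 to 2.72 in OVSAHO and from 8.79 to 4.08 in Kuramochi. Parental values at the bottom of the range make these sizes uncertain. All 9 differences kept their sign in the resistant lines, from -7.29 for NIBAN2 to 8.72 for SST.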

How the results depend on the processing

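The genes named by margin kept their direction and their call in all 494 refits run for them. Of the alternative counts of genes, 108 stayed within 1.5 times the reported one and 22 did not. With no fold threshold the counts against the mean of the other lines were 7892 higher and 7196 lower, against all 3 lines 2939 and 2215, in the resistant lines 8421 and 7658, and for the interaction 3335 and 3238. At 1.5-fold they were 2224 and 1687 against all 3 lines, 6282 higher in the resistant lines, and 2081 and 1974 for the interaction. At 4-fold they were 1699 and 2093 against the mean and 503 and 439 against all 3 lines. Fewer genes entered when only those above the 25th percentile were kept, and the counts were 2217 lower against the mean, 811 higher against all 3 lines, 2237 lower in the resistant lines, and 732 and 557 for the interaction. Leaving out 1 library at a time gave 4078 to 4298 higher and 4098 to 4225 lower against the mean, 1345 to 1473 and 1086 to 1125 against all 3 lines, 4079 to 4141 and 4224 to 4294 in the resistant lines, and 1168 to 1227 and 1011 to 1044 for the interaction. Of the alternative list medians, 27 moved by more than the spread between replicates and 243 did not. The median of the surface antigens went from -0.16 to 0.53 with the filter and 0.34 without OV-90 library 2 and Kuramochi library 6, a choice made after seeing the data. The G1/S median went from 0.03 to -0.07 without OV-90 library 2. The cause was not tested. The limits are that depth is unknown, that each line is 1 line, and that values at the bottom of the range give no fold. No paired analysis was possible because the columns carry library numbers and no replicate numbers.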
